A study of Mus musculus with 8 samples.

Results

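The lactating mammary gland builds most of the short and medium-chain fatty acids of milk itself, and 10 genes that carry or set that route were followed here: Slc25a1, Acly, Aacs, Acss2, Acaca, Acacb, Fasn, Olah, Thrsp and Mlxipl. They were chosen by their place in the route, from citrate export to the release of medium-chain fatty acids. Earlier results of these data were known at that time. All 10 were on the array, with 17 probes between them, and all 10 were among the 14137 genes tested of 18749 with a named probe. Each of the 17 probes was well above background on all 8 arrays, and 0 spots were saturated.

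In milk-secreting alveolar cells, citrate leaves the mitochondrion and is cleaved to acetyl-CoA in the cytosol, which acetyl-CoA carboxylase turns into malonyl-CoA. Fatty acid synthase then joins these units into a growing chain, and a thioesterase found in few tissues besides the lactating gland cuts the chain short. The genes of this route are switched on around birth, and the transcription factor SREBP1c, encoded by Srebf1, is one of their known activators.

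The samples were whole No. 4 mammary glands of female mice of the C57/Bl6 background, taken at lactation day 1. One group of 4 dams was wild type (WT), and the other group of 4 was deficient in Th-POK (KO), a zinc finger transcription factor encoded by Zbtb7b, through a germline knockout that every cell of the animal carries. RNA of each dam was hybridized to a one-colour Agilent array of its own. The spread among 4 arrays therefore holds differences between dams and between arrays, which cannot be told apart. A difference in a whole gland may come from fewer cells of a type or from less RNA per cell, and these arrays cannot tell them apart.

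Zbtb7b was not well above background on any KO array and lay at least 81.5-fold below the WT arrays (limma adjusted p = 5.71e-09). The tissue label was checked against 9 markers of alveolar luminal cells, all well above background on 8 of 8 arrays. Of these 9, 6 had a difference above 0 and 3 below it. Among the milk protein genes the log2 difference (KO minus WT) was 0.01 for Csn2 (SE 0.09), 0.07 for Wap (SE 0.08), -0.03 for Csn3 (SE 0.22) and -0.45 for Lalba (SE 0.23). The WT arrays shared a slide and the KO arrays shared the second one, so for every value that follows genotype and slide cannot be told apart.

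Signals are given as log2 of the array intensity after quantile normalization between the 8 arrays, for the brightest probe of a gene, and arrays are listed in the order of replicates 1 to 4. Differences are KO minus WT on the log2 scale, so that a value below 0 means less signal in the KO glands. Tests are those of limma over all genes tested, with Benjamini-Hochberg adjustment. Each difference was fitted with the arrays unpaired and again with the replicate number as a block, since arrays of the same number deviated together. That was seen in these same 8 arrays, and what a number shares is not given in the sources used here.

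Most of the 10 genes had a lower mean signal in the KO glands, with large differences between arrays of the same genotype. The difference was below 0 in 9 of the 10, and in 7406 of the 14137 genes tested. The median of the 10 was -1.14, against -0.02 for all genes tested. The genes moved together from array to array, so they are not separate observations. With the arrays unpaired, only Acacb passed an adjusted p under 0.05, which is 1 of 10 where 8.96% of all genes were called lower and 7.53% higher. With the replicate number as a block, 7 of 10 were called lower (Slc25a1, Acly, Aacs, Acaca, Acacb, Fasn and Thrsp) and 0 higher, where 10.8% of all genes were called lower and 8.75% higher. In 7 of 10 genes the KO array was below the WT array of the same number in 4 of 4 pairs, a pattern that 25.6% of all genes showed. In 0 of 10 did all WT arrays lie above all KO arrays, where 12.9% of all genes had that arrangement.

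These counts depended on single arrays. The unpaired count was 4 without WT replicate 1 or without KO replicate 4, was 1 without KO replicate 2 and was 0 without any other single array. The count with the block was 7 without replicate 4 of both genotypes, 5 without replicate 1, 1 without replicate 2 and 0 without replicate 3. Over all genes, the calls with the block fell from 1525 lower and 1237 higher to 44 and 45 when replicate 3 was left out.

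**Figure D1:**
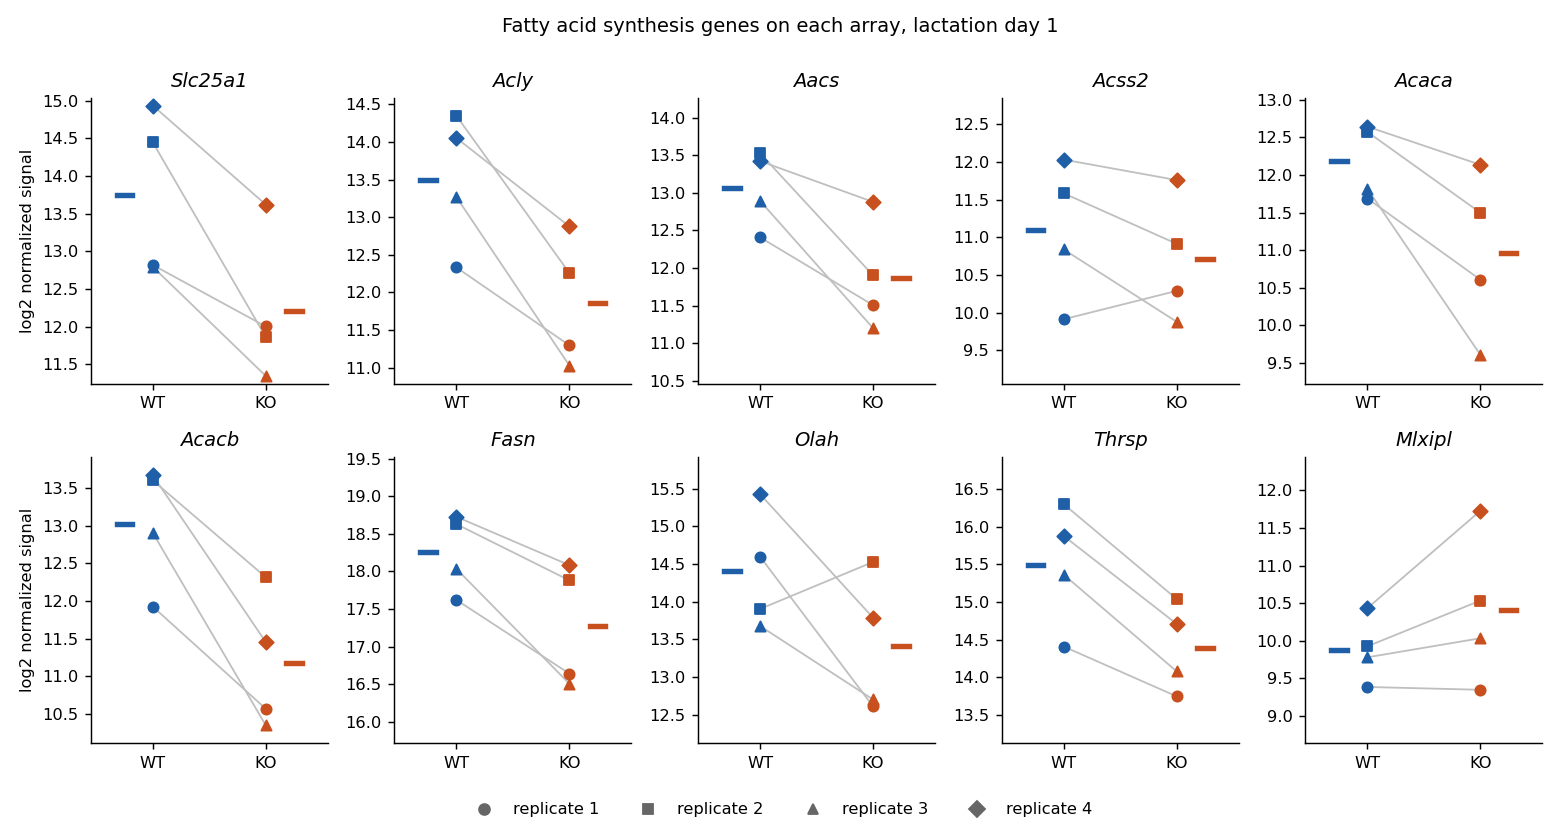
Log2 normalized signal of the brightest probe of each gene on the 4 WT and 4 KO arrays, where marker shape gives the replicate number, lines join arrays of the same number, thick bars are genotype means and every panel spans the same log2 range. In 9 panels the KO mean lies below the WT mean, and in all 10 at least 1 KO array lies above the lowest WT array.

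Slc25a1 encodes the mitochondrial citrate carrier, which brings the carbon for fatty acids into the cytosol. In the WT glands the log2 signal was 12.82, 14.45, 12.79 and 14.94, and in the KO glands it was 12.003, 11.86, 11.35 and 13.62. WT replicates 2 and 4 stood well above the other WT arrays, and KO replicate 4 lay among the WT values. The difference of -1.54 (SE 0.63, adjusted p = 0.115) was 2.91-fold and passed the threshold only with the block (adjusted p = 0.0241).

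Acly encodes ATP citrate lyase, which splits the exported citrate into acetyl-CoA and oxaloacetate. The log2 signal read 12.33, 14.35, 13.27 and 14.05 in the WT dams and 11.30, 12.26, 11.03 and 12.88 in the KO dams. Only KO replicate 4 rose above the lowest WT array, so the groups overlapped by that array alone. The difference was -1.63 (SE 0.53, 3.101-fold, adjusted p = 0.0639), and -1.03 to -2.24 within the pairs (adjusted p = 0.0165 with the block).

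Acss2 and Aacs draw on other sources. Acss2 makes acetyl-CoA from acetate, and Aacs activates the ketone body acetoacetate to acetoacetyl-CoA. For Acss2 the WT dams read 9.91, 11.58, 10.84 and 12.03 in log2 signal and the KO dams 10.29, 10.91, 9.88 and 11.76. These groups overlapped almost throughout, and the pair of replicate 1 was higher in the KO gland by 0.38. The difference of Acss2 was -0.38 with a 95% confidence interval from -1.58 to 0.82 (adjusted p = 0.631, or 0.262 with the block), an interval that holds 0 as well as the difference of Slc25a1. Leaving out single arrays moved it from -0.77 (without WT replicate 1) to -0.07 (without WT replicate 4).

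For Aacs the WT dams read 12.41, 13.52, 12.89 and 13.42 in log2 signal and the KO dams 11.51, 11.90, 11.20 and 12.88. Its KO arrays again lay below the lowest WT array except for replicate 4. The difference was -1.19 (SE 0.38, 2.28-fold, adjusted p = 0.0635, or 0.0246 with the block), and it was -0.54 in the pair of replicate 4 and -1.69 in that of replicate 3.

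The signals of Acss2 and Acly, whose enzymes make acetyl-CoA from acetate and from citrate, were compared by their difference on each array. Use of the sources themselves was not measured. Acss2 minus Acly was -2.41 ± 0.30 in WT and -1.16 ± 0.14 in KO (mean ± SD, n = 4 each). All 4 KO arrays lay above all 4 WT arrays, so relative to Acly the signal of Acss2 was higher in every KO gland, by 1.25 on the log2 scale. An exact two-sided permutation test over the 70 relabelings of the arrays gave p = 0.0286, the smallest it can give, and 0.0857 after adjustment over the 3 pairs of genes compared, so the threshold was not passed. Leaving out each array in turn gave 1.13 to 1.38.

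The carboxylation of acetyl-CoA to malonyl-CoA commits carbon to a fatty acid, and 2 genes encode enzymes for it. Acaca encodes the cytosolic form that feeds synthesis, with log2 signals of 11.69, 12.57, 11.81 and 12.64 in WT and 10.61, 11.50, 9.61 and 12.14 in KO. The KO arrays had the wider spread (SD 1.10 against 0.50), with replicate 3 lowest and replicate 4 within the WT values. The difference was -1.22 (SE 0.51, 2.32-fold, adjusted p = 0.125, or 0.0358 with the block).

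Acacb encodes the form at the outer mitochondrial membrane, whose malonyl-CoA is known for restraining the entry of fatty acids into the mitochondrion. With all arrays it had the largest difference of the 10 genes, but without KO replicate 4 those of Slc25a1 (-2.01) and Acly (-1.97) were larger than its own (-1.95). Replicates 1 to 4 had log2 signals of 11.93, 13.60, 12.91 and 13.67 in WT and 10.57, 12.32, 10.35 and 11.46 in KO. Here KO replicate 2, and not KO replicate 4, lay above the lowest WT array. Acacb fell by 1.85 on the log2 scale (SE 0.51, 3.61-fold, adjusted p = 0.0428, or 0.0140 with the block), but leaving out single arrays moved the unpaired adjusted p between 0.0210 and 0.115. Acacb minus Acaca was 0.85 ± 0.41 in WT and 0.21 ± 0.71 in KO (mean ± SD, n = 4 each), a change of -0.64 that did not pass the exact permutation test (p = 0.171, or 0.257 after adjustment over 3 pairs). It was -0.84 without KO replicate 2 and -0.34 without KO replicate 4.

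Fasn encodes fatty acid synthase, the enzyme that carries out all steps of chain growth. The brightest Fasn probe read 17.62, 18.63, 18.03 and 18.73 in the WT dams and 16.64, 17.88, 16.51 and 18.08 in the KO dams, in log2 signal. KO replicates 2 and 4 lay within the WT values, and KO replicates 1 and 3 lay below all of them. The difference was -0.97 (SE 0.41, 1.96-fold, adjusted p = 0.128), with -0.64 to -1.53 in the 4 pairs and an adjusted p of 0.0216 with the block.

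Olah encodes the thioesterase that releases medium-chain fatty acids from fatty acid synthase, a step known from milk fat. Across WT dams the log2 signal was 14.60, 13.90, 13.68 and 15.43, and across KO dams 12.61, 14.53, 12.70 and 13.79. The order of its arrays differed from that of the other genes, with WT replicate 1 second highest, and the pair of replicate 2 was higher in the KO gland by 0.62. The difference of -0.995 (SE 0.51, adjusted p = 0.196) did not pass with the block either (adjusted p = 0.143). Olah and Fasn did not differ detectably in their genotype difference (Olah minus Fasn, -0.02, exact permutation p = 0.943), and the sign of that small value turned without WT replicate 1 (0.25) and without WT replicate 4, KO replicate 1 or KO replicate 4 (0.16, 0.03 and 0.12).

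Thrsp encodes Spot 14, a small protein abundant in tissues that make fat and known for its part in the synthesis of medium-chain fatty acids in the lactating gland. In the WT glands the log2 signal was 14.41, 16.30, 15.36 and 15.88, and in the KO glands it was 13.75, 15.04, 14.08 and 14.71. The within-pair differences ranged from -0.66 to -1.28, and of the 10 genes Thrsp had the smallest SE with the block (0.14). The difference was -1.09 (SE 0.43, 2.13-fold, adjusted p = 0.106, or 0.0132 with the block).

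Mlxipl encodes ChREBP, the carbohydrate response element binding protein, a transcription factor of lipogenic genes, and it was the only gene of the 10 with a difference above 0. The log2 signal read 9.39, 9.93, 9.78 and 10.43 in the WT dams and 9.35, 10.53, 10.03 and 11.73 in the KO dams. KO replicate 4 stood above every other array and KO replicate 1 below them all. The difference of 0.53 (95% confidence interval -0.53 to 1.59, adjusted p = 0.442, or 0.141 with the block) was positive in 3 of 4 pairs and did not pass. It was 0.09 without KO replicate 4 and 0.88 without KO replicate 1.

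**Figure D2:**
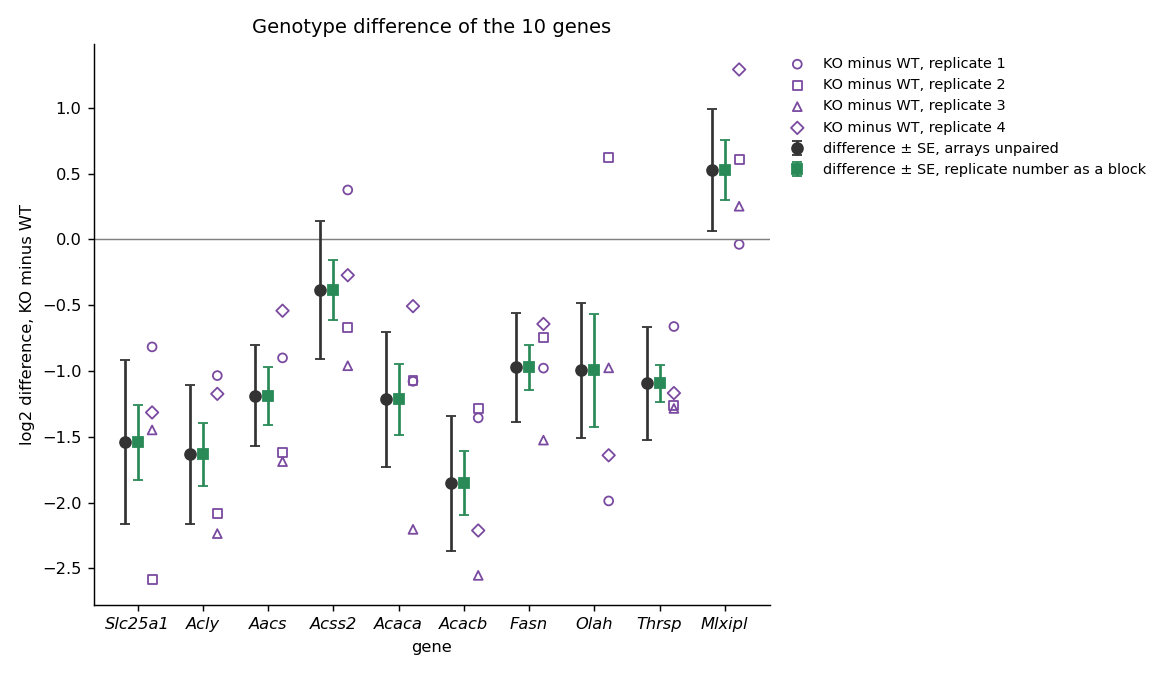
Log2 difference, KO minus WT, of each gene with its SE from the fit with unpaired arrays (circles) and from the fit with the replicate number as a block (squares), and the difference within each of the 4 replicate numbers (open symbols). The block leaves the differences as they are and narrows the SE of Thrsp from 0.43 to 0.14 but that of Olah only from 0.51 to 0.43.

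The spread among arrays of one genotype was wide for these genes. The median within-genotype SD was 0.85 over the 10 genes, against 0.23 over all genes tested, and only 1.23% of all genes had a larger SD than Slc25a1 (1.05). The genes moved together from array to array. WT replicate 4 was among the upper 2 WT arrays for 10 of 10 genes and WT replicate 2 for 9 of 10, while WT replicate 1 was the lowest for 8. Among the KO arrays, replicate 4 was in the upper 2 for 10 of 10 and replicate 2 for 9, while replicate 3 was the lowest for 7. KO replicate 4 lay above the lowest WT array in 9 of 10 genes and KO replicate 2 in 6 of 10, but KO replicates 1 and 3 in 1 gene each.

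**Figure D3:**
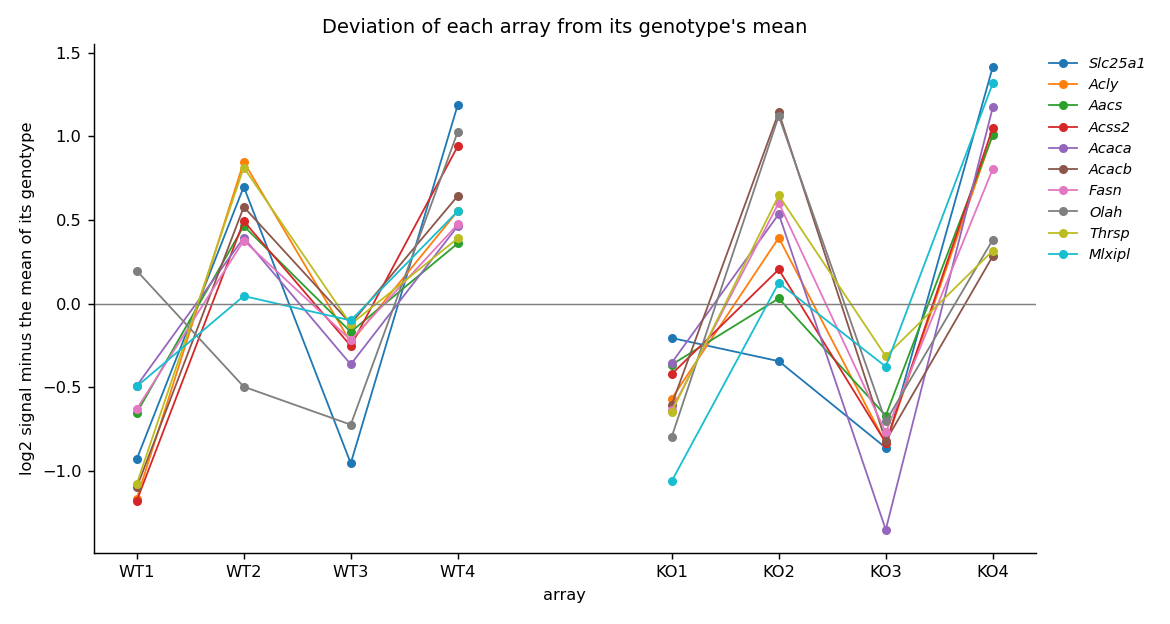
Log2 signal of each gene on each array minus the mean of its genotype, 1 line per gene, with the WT arrays on the left and the KO arrays on the right. Replicates 2 and 4 lie mostly above 0 and replicates 1 and 3 mostly below 0 in both genotypes, with Olah the main departure among the WT arrays.

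Over the 8 arrays the signal of Fasn followed that of Acaca (Pearson's r = 0.963) and Acly (r = 0.963) most closely among the 10 genes, and that of Mlxipl least (r = 0.381). After the genotype means were taken off, Mlxipl followed Fasn at r = 0.854. Its array-to-array variation thus ran with that of Fasn while its genotype difference had the other sign. The genes outside the 10 whose signal was most like Fasn's were Isca2, Kcnk6, Chrdl2, Lrp2 and Sfxn2 (r = 0.984, 0.979, 0.979, 0.978 and 0.978), of which Lrp2 was not well above background on any KO array. These values describe 8 points that share their arrays and fall in 2 genotypes, and no p is attached to them.

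Among the 10 genes, Acss2, Acaca, Acacb, Fasn and Mlxipl had more than 1 probe, and in each the probes gave differences of the same sign. The 4 probes of Acaca gave -1.22 to -1.37. The second probe of Acss2 gave -0.50 and that of Mlxipl 0.69. The probes of Acacb gave -1.85 and -2.42, and on the second (A_52_P340167) the WT arrays at 6.60, 8.65, 7.85 and 8.15 all lay above the KO arrays at 5.14, 6.13, 4.62 and 5.67 (adjusted p = 0.0172 over all probes). That was the only 1 of the 17 probes whose genotypes did not overlap. Of all genes, 12.9% had all WT arrays above all KO arrays, and the share over all probes was not counted.

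Fasn was the gene whose probes differed most in size. The brighter probe (A_51_P321126) gave -0.97 and the dimmer one (A_52_P100252) -1.93 (SE 0.68, 3.81-fold, adjusted p = 0.0858, or 0.00464 with the block). The dimmer probe read 12.32, 14.40, 12.55 and 14.48 on the WT arrays and 10.67, 12.44, 10.35 and 12.58 on the KO arrays, the same order of dams as the brighter one in both genotypes. The gap between the probes was wider by 0.96 on the KO arrays (exact two-sided permutation p = 0.0571, or 0.1 after adjustment over the 7 probe comparisons), so a difference between them was not established. For Mlxipl the gap between its probes narrowed by 0.17 on the KO arrays, all of which lay above all WT arrays, and this did not pass after adjustment either (exact permutation p = 0.0286, or 0.1). Over the 17 probes, 2 were called lower with the arrays unpaired, both of Acacb, where 7.17% of all 27654 probes tested were called lower, and 11 were called lower with the block, where 8.12% were.

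**Figure D4:**
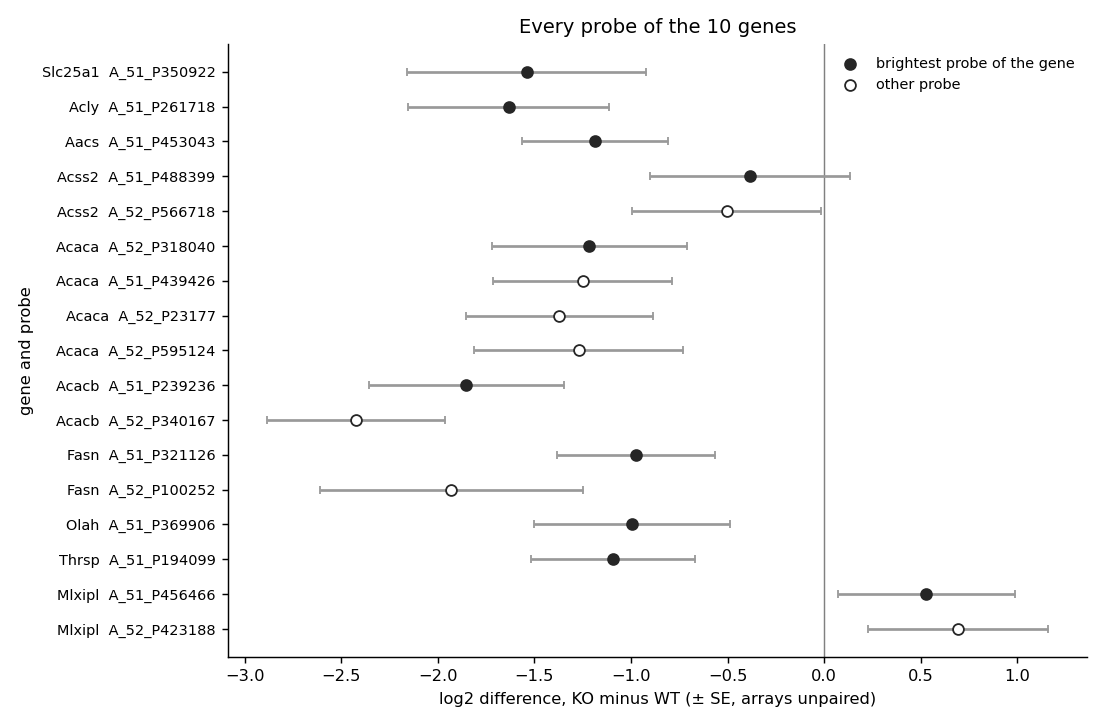
Log2 difference, KO minus WT, with its SE from the unpaired fit for each of the 17 probes, filled for the probe that stands for its gene and open for the others. The probes of Acaca lie between -1.22 and -1.37, while the Fasn probes lie 0.96 apart.

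Promoters of 4 genes are shown as examples: those of the synthase Fasn and of Thrsp, each with more than 1 CCAAT match, that of Acacb, the gene called in both fits, and that of Mlxipl, whose difference had the other sign. Slc25a1, also with more than 1 CCAAT match, and Acly and Acss2 hold matches too and are given by count only. Each window runs from 250 bases before to 50 bases after the start of transcription in RefSeq on GRCm38.p6, read 5′ to 3′ on the strand of the gene, and capitals mark matches to TCACNCCAC (a sterol regulatory element), CACGTG (an E-box), CCAAT (bound by NF-Y) or GGGCGG (bound by Sp1) on either strand. In the window of Fasn (chr11:120824498-120824797, minus strand) a CCAAT and an ATTGG overlap in one run of capitals. The window of Thrsp is chr7:97417501-97417800, minus strand, that of Acacb is chr5:114165268-114165567, plus strand, and the second of the windows of Mlxipl is chr5:135106641-135106940, plus strand.
Fasn: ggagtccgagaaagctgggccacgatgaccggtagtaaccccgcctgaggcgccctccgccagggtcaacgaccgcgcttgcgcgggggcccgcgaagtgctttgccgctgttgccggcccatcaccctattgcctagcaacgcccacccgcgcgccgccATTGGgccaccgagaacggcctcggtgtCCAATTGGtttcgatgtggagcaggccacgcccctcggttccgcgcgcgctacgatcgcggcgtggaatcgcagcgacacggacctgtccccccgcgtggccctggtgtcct
Thrsp: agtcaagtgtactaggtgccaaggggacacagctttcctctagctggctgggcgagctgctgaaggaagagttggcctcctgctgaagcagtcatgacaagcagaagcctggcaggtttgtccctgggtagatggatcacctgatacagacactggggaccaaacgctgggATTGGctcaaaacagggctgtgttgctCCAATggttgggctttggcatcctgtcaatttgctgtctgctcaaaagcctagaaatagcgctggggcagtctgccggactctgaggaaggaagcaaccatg
Acacb: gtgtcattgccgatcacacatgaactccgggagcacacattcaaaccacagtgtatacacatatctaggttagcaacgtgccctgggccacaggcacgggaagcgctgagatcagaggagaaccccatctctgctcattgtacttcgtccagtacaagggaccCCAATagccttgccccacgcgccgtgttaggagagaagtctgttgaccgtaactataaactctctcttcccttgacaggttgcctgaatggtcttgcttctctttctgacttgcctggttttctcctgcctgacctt
Mlxipl: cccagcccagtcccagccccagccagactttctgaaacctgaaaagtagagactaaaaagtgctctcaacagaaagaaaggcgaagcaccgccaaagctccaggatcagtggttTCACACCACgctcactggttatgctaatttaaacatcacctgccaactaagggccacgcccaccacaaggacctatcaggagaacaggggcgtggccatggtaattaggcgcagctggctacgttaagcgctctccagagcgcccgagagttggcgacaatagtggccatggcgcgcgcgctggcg

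CCAAT was found in 7 of the 10 genes (Slc25a1, Acly, Acss2, Acacb, Fasn, Thrsp and Mlxipl), where 41.1% of all 27025 genes with a window held it. Fasn had 3 matches, starting 90, 62 and 59 bases before the start of transcription, and Thrsp had 2, starting 79 and 52 bases before it. Slc25a1 also had 2. GGGCGG was found in 4 of 10 (Slc25a1, Acly, Acss2 and Mlxipl), against 38.2% of genes, and CACGTG in 2 of 10 (Slc25a1 and Mlxipl), against 8.09%. TCACNCCAC was found in Mlxipl alone, in the window printed above, against 1.44% of genes. These are matches of letters only, and none of the 4 patterns separated the genes called with the block from Acss2, Olah and Mlxipl.

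A wider list of 63 genes around the route was read from the same fit, of which 61 were tested (Stk11 and Hsd17b8 had no named probe). Of the 61, 41 were lower and 20 higher, with a median difference of -0.25. With the arrays unpaired 7 of 61 were called lower, where 8.96% of all genes were, and 2 higher, where 7.53% were, so the unpaired count of lower genes was near that background. With the block 18 of 61 were called lower, where 10.8% of all genes were, and 2 higher, where 8.75% were. The unpaired total of 9 was 1 without KO replicate 1 or KO replicate 3, and 2 without WT replicate 2 or KO replicate 2. It was 3 without WT replicate 3, 5 without WT replicate 4, 12 without WT replicate 1 and 15 without KO replicate 4. The total of 20 with the block was 14 without replicate 4 of both genotypes, 13 without replicate 1, 2 without replicate 2 and 0 without replicate 3.

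Among the transcription factors and their partners, Srebf1 fell by 1.31 (SE 0.19, adjusted p = 0.00880). Replicates 1 to 4 had log2 signals of 15.40, 16.31, 15.85 and 15.62 in WT and 14.47, 14.66, 14.32 and 14.47 in KO. These groups were apart by 0.73, with none of the KO arrays among the WT values, unlike the 10 genes of the route. KO replicate 4, the highest KO array for 7 of those 10, was not the highest for Srebf1.

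Insig1, which holds SREBP precursors in the endoplasmic reticulum and is itself an SREBP target, fell by 2.30 (SE 0.45, adjusted p = 0.0180). Mlx, the partner with which ChREBP binds DNA, fell by 0.67 (SE 0.18, adjusted p = 0.0403), and Nr1h3, which encodes the oxysterol receptor LXR alpha, rose by 0.68 (SE 0.15, adjusted p = 0.0251). Of the 13 genes in this group, 3 were called lower and 1 higher in either fit, and the median difference was 0.06. Over all genes the shares were 8.96% lower and 7.53% higher unpaired, and 10.8% and 8.75% with the block.

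Among the 11 genes that supply citrate and acetyl-CoA, all 11 had a difference below 0, as did 7406 of the 14137 genes tested. Of the 11, 1 was called lower with the arrays unpaired, which is near the 8.96% of all genes, and 3 with the block (10.8% of all genes). Cs, which encodes citrate synthase, fell by 0.60 (SE 0.17, adjusted p = 0.0446). Of the 5 genes that supply NADPH, 0 were called unpaired (8.96% of all genes lower, 7.53% higher) and 2 were called lower with the block (10.8% of all genes). Me1, which encodes cytosolic malic enzyme, had a difference of -0.37 (SE 0.33, adjusted p = 0.455, or 0.0963 with the block).

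Among the 16 genes that elongate, desaturate or activate the finished fatty acid, 12 were lower. Unpaired, 2 were called lower, near the 8.96% of all genes, and with the block 8 were, where 10.8% of all genes were. Elovl1, an elongase of very long chains, fell by 1.09 (SE 0.31, adjusted p = 0.0472), and Hsd17b12, the ketoacyl reductase of elongation, fell by 0.76 (SE 0.16, adjusted p = 0.0228). Scd1, a delta-9 desaturase, had a difference of -0.83 (SE 0.39, adjusted p = 0.161, or 0.0447 with the block). That of Scd2, another delta-9 desaturase of the group, was -2.18 (SE 0.70, adjusted p = 0.0635, or 0.0268 with the block). Of the 6 genes of mitochondrial fatty acid synthesis, Mecr alone was called in either fit, where 8.96% of all genes were called lower unpaired and 10.8% with the block. Mecr fell by 0.71 (SE 0.19, adjusted p = 0.0370).

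Of the 10 tested regulators of acetyl-CoA carboxylase, 5 were lower and 5 higher. Prkaa1, which encodes a catalytic subunit of the AMP-activated kinase that inhibits the carboxylase, rose by 0.40 (SE 0.11, adjusted p = 0.0403). Prkaa2, which encodes the other catalytic subunit, had a difference of -0.93 (SE 0.29, adjusted p = 0.0586), was lower in 4 of 4 pairs and was called lower with the block (adjusted p = 0.0231). Mid1ip1, a relative of Thrsp that promotes assembly of the carboxylase, had a difference of 0.09 (SE 0.24, adjusted p = 0.807).

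**Figure D5:**
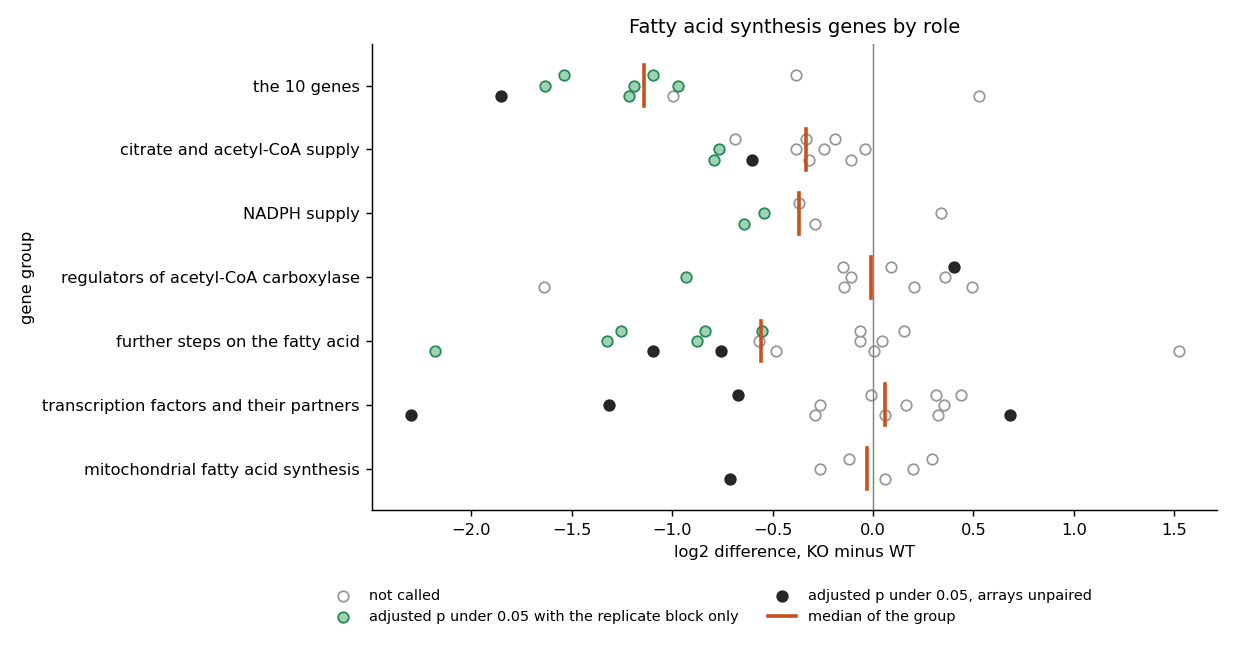
Log2 difference, KO minus WT, of the 10 genes and of the 61 genes of the wider list by role, 1 point per gene, filled black for an adjusted p under 0.05 with unpaired arrays and green for the block only, with the median of each group as a bar. The medians are -1.14 for the 10 genes, -0.33 for citrate and acetyl-CoA supply, -0.56 for the further steps on the fatty acid and 0.06 for the transcription factors.

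A whole gland also holds fat cells, which make fatty acids with the same enzymes, and other cell types. Beside the marker calls below, 7.53% of all genes were called higher and 8.96% lower unpaired, and 8.75% and 10.8% with the block. The mean log2 signal of 9 adipocyte markers was 12.86 to 13.56 on the WT arrays and 13.54 to 13.75 on the KO arrays, with 8 of 9 higher and 2 (Plin1 and Cfd) called higher. That of 9 alveolar luminal markers was 15.40 to 15.53 on the WT arrays and 15.56 to 15.72 on the KO arrays, with 3 (Krt18, Epcam and Cdh1) called higher and 0 lower. The other 3 higher and the 3 lower members, Elf5 (-0.35), Lalba and Csn3, did not pass unpaired. With the block Lalba was called lower (adjusted p = 0.0444) and Epcam lost its call (adjusted p = 0.0598). The mean of 4 fibroblast markers was 13.78 to 14.06 in the WT dams and 14.15 to 14.68 in the KO dams, with 4 of 4 higher and 1 (Dcn) called. The 4 neutrophil markers on the array had differences above 0, with 2 (Ngp and Camp) called. Their mean was 6.03 to 7.10 in the WT dams and 8.81 to 10.18 in the KO dams. Ngp and Camp were well above background on the 4 KO arrays only, and entered the test through them. S100a8 and S100a9 were above it on all 8 arrays. The difference was 0.49 for S100a8 (adjusted p = 0.357, or 0.375 with the block). For S100a9 it was 2.19 (adjusted p = 0.0566, or 0.0459 with the block). The part of these cells in the differences given above was not tested.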

How the data were processed

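RNA of 8 glands (4 WT, 4 KO), 1 dam each, was measured on one-colour Agilent arrays. The scanner intensities the authors deposited came from Agilent Feature Extraction 10.7 and were background-subtracted and detrended within each array. A second file the authors deposited holds log2 values after quantile normalization in GeneSpring, and it was an alternative only. Groups and replicate numbers came from the sample labels.

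After removal of control spots, intensities were log2-transformed and normalized by quantiles over the 8 arrays (limma 3.58.1, R 4.3.3). Spots marked as outliers were then left out, and values were averaged over the remaining spots of a probe. A probe entered if either genotype had it well above background on 4 of 4 arrays, as all 17 probes of the 10 genes were. The brightest probe stood for a gene, and genes were named through RefSeq accessions. The test was that of limma, with p adjusted by Benjamini-Hochberg over 14137 genes (27654 probes for probe values), and its script was tested on simulated data. Single differences between genes or probes used an exact permutation test.

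Same-numbered WT and KO arrays deviated from their genotype means together (r = 0.219, 0.165, 0.304 and 0.283 over genes). The mean for other numbers was -0.08. Centring on the genotype means ties it to the same-number values, so it is no separate comparison. What a number shares is not given in the sources used here. The share of probes well above background was 66.8% to 75.3%, and the number of arrays limits the precision. The 10 genes, the lists and the comparisons were chosen with earlier results of these data known. Named beside the 10 genes are Zbtb7b, called genes of the wider list, Srebf1, Insig1, Scd1, Me1, Mid1ip1, markers, and the 5 genes most like Fasn. Prkaa2, Pgd and Scd2 were added after their values were seen. Alternatives were other scalings, filters, probe choices and tests, and leaving out each array.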

Additional observations from a re-analysis of the deposited data

Results flagged for a closer look

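In 4 of 102 groups of 4 arrays checked, 1 array stood apart from the other 3 by more than Dixon's limit, where chance sets apart about 1 group in 20. In the difference Acacb minus Acaca, WT replicate 1 lay at 0.24 and the other WT arrays between 1.03 and 1.09. KO replicate 4 lay apart in genes of the wider list that were called lower with the block only: for Prkaa2, a catalytic subunit of the AMP-activated kinase, it had a log2 signal of 12.47 against 11.24 to 11.39 on the other KO arrays, and for Pgd, an NADPH-producing dehydrogenase, 13.65 against 13.06 to 13.08. In the mean of the alveolar luminal markers, the value of KO replicate 1 was 15.56, and the rest of the KO arrays had 15.71 to 15.72.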

How the results depend on the processing

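All 10 genes kept the sign of their difference under every alternative run, and their median stayed between -1.39 and -0.86. The number called did not stay: beside 1 of 10 genes, 9 of the 61 genes of the wider list and 2 of 17 probes, the counts were 0, 4 and 1 without the filter on dim probes, 3, 20 and 5 with array weights and 7, 20 and 11 under a replicate block. By the methods' t-test with Benjamini-Hochberg adjustment the counts were 0, 6 and 0 (3 of the 10 genes had an unadjusted p under 0.05). Without each array in turn the counts ranged from 0 to 4, from 1 to 15 and from 0 to 7. With the block and the mean of all probes of a gene they were 7 and 22 genes, and with the block and scaling to the 75th percentile 7 and 25, while leaving out each pair under the block gave 0 to 7 and 0 to 14. These combinations with the block, and normexp on the median signals, were chosen after seeing the data, and normexp on the mean signals was not run because the scanner output used here holds none. Olah minus Fasn turned from -0.02 to 0.46 with the mean of all probes and ranged from -0.31 to 0.25 without each array. Acss2 minus Acly stayed between 1.13 and 1.38. The exact test within 4 pairs cannot give a p under 0.125. The cause of the changes was not tested.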
